A study of Rattus norvegicus with 6 samples.

Results

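The genes described are those of the lysosome, of the proton pump that acidifies it and of autophagy, measured in fat of newborn rats whose dams received feed with or without vitamin D. A list of 42 gene symbols was set by function, with earlier results of these data known. A gene was taken as a member where the array's annotation assigns a probe set to that symbol alone. This gave 41 genes with 63 probe sets, of 14217 named genes and 31042 probe sets in all. The exception was Map1lc3b (LC3B), whose probe set is also assigned to Map1lc3b2. The sub-blocks are 8 cathepsins, 14 other hydrolases and cofactors, 5 membrane proteins, 7 pump subunits, and 7 genes of autophagy together with Tfeb. Biotin-labelled material from mesenterial adipose tissue of wildtype Sprague-Dawley newborns was hybridised to 6 Affymetrix rat expression arrays. In the adequate group (3 arrays) the dams' feed held 1000 IU of vitamin D per kg, and in the deficient group (3 arrays) it held 0 IU per kg. The labels name no litter, sex or pooling, so the spread between arrays of a group may be partly technical.

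Lysosomes are acidic compartments in which proteases, glycosidases and lipases break down material taken up by the cell or delivered by autophagy. The vacuolar proton pump (V-ATPase) has a membrane sector, V0, that conducts protons and a cytosolic sector, V1, that hydrolyses ATP. Many genes of both systems carry a short promoter element, known as the CLEAR element, that is bound by the transcription factor TFEB. In adipose tissue lysosomes are prominent in macrophages and also serve turnover of lipid droplets and matrix in adipocytes and stromal cells.

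The promoters show which members carry the core of that element. Windows of 300 bases, 250 before and 50 after the annotated start, were available from RefSeq on the GRCr8 build for 34 of the 42 listed genes. Each motif searched equals its own reverse complement, so 1 pass covers both strands. The E-box CACGTG was found in 8 of the 34 windows (23.5%), against 6.42% of all 33469 windows available. Members had 1 window per gene, whereas the 33469 were not reduced to 1 per gene or selected by gene type. Base composition was not matched, so the shares are a description only. Its longer form TCACGTGA, which contains the E-box, was found in 5 windows (14.7%) against 0.777%, namely those of Ctsd, Lamp1, Cln3, Mcoln1 and Atp6v0d1. Of 72 windows of other lysosome, pump and autophagy genes, 14 held CACGTG (19.4%) and 7 held TCACGTGA (9.72%). One more search, for the longer form with a G before it and a C after it, matched 0 of the 34 windows, 4 of the 72 (5.56%) and 0.233% of all windows. A match describes the letters of the window and was not measured as a bound site. The 5 windows below belong to genes that the results return to, each printed 5′ to 3′ on the gene's strand with the E-box, or TCACGTGA where present, in capitals. They lie at chr1:206968772-206969071 (minus strand) for Ctsd, chr8:122963468-122963767 (plus) for Glb1, chr16:83075014-83075313 (minus) for Lamp1, chr12:6358008-6358307 (plus) for Mcoln1 and chr19:50357199-50357498 (minus) for Atp6v0d1.
Ctsd: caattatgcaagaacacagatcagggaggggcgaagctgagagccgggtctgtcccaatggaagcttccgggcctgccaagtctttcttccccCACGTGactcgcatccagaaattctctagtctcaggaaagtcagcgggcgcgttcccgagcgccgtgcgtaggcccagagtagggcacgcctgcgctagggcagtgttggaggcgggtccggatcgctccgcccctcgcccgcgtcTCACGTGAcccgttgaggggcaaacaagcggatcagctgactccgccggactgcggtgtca
Glb1: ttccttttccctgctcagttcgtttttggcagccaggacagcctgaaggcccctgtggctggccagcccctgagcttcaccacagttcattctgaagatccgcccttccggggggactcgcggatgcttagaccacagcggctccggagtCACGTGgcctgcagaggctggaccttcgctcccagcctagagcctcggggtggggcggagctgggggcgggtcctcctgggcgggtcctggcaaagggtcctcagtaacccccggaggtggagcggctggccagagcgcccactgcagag
Lamp1: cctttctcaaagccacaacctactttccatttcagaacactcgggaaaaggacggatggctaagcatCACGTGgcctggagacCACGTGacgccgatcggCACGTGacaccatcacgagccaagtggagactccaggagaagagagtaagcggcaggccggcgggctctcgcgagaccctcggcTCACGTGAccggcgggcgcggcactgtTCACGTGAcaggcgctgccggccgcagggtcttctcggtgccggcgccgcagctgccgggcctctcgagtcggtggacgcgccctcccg
Mcoln1: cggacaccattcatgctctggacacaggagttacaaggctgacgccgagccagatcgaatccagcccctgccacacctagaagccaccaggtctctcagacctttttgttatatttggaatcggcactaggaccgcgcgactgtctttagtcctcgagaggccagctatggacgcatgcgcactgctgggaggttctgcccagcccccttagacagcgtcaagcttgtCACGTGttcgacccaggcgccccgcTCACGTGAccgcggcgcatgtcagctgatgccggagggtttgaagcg
Atp6v0d1: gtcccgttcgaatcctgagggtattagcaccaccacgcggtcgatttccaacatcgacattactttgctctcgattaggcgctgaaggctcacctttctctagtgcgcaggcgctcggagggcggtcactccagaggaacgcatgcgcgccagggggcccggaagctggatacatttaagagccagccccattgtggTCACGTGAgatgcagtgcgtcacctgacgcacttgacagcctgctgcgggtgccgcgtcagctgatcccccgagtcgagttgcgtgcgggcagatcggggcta
The Lamp1 window held 5 copies of CACGTG, of which 2 were in the longer form. The Ctsd window held 2, beginning at bases 94 and 241 of the window, and the Mcoln1 window 2, at bases 229 and 255. Those of Glb1 and Atp6v0d1 held 1 each, at bases 151 and 199.

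A signal is the authors' MAS5 intensity of a probe set, given here as log2, and differences are deficient minus adequate on that scale. A probe set was tested if its mean log2 signal over the 6 arrays was at least 6.46, the 40th percentile. Of the 41 members 40 passed, each represented by its brightest tested probe set, and Cln3 did not. Over all tested probe sets, 2 of the 3 deficient arrays differed from the rest. On the first principal component (49.5% of variance) deficient array 1 scored 43.1 and deficient array 2 scored 46.4, where no other array scored outside -26.2 to -18.5. The beta-actin 3′ to 5′ signal ratio, a sign of RNA or labelling quality, reached 7.56 on array 1 and 6.80 on array 2 of this group, and was 2.35 to 4.81 elsewhere. Bacterial hybridisation controls were 7.19 times the adequate mean on deficient array 1, 10.1 times on array 2 and 0.960 times on array 3. Adequate array 3 carried the highest liver and gut marker signal, 1.16 and 1.71 above the adequate mean in log2. Of the fat cell markers, Fabp4 lay between 10.63 and 11.46 and Lpl between 9.91 and 10.84 in log2 signal on the 6 arrays, while Plin1, Adipoq, Cidec and Pparg were below the filter. Cd36, Dgat2 and Lipe differed by -0.41 ± 0.29, -0.44 ± 0.21 (groups without overlap) and 0.29 ± 0.30 (SE), deficient minus adequate. The mean of the 5 tested fat cell markers relative to the adequate mean was -0.30, -0.29 and 0.12 on deficient arrays 1 to 3, against -0.04 to 0.05 on the adequate arrays. Each result is therefore given by array.

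The comparison asks whether these genes differed in the newborns' fat with the vitamin D in the dams' feed. The mean of the deficient group was lower for 30 of the 40 tested members (75.0%), where 60.8% of all 10591 tested named genes were lower, each by its brightest probe set. The median log2 difference was -0.23 over the members and -0.09 over all tested named genes, and the members' median was -0.14 without deficient array 2. No member passed the threshold adjusted over all 18625 tested probe sets with limma, nor did any other probe set (0.0%), and the smallest adjusted p among members was 0.344. At an unadjusted p under 0.05, 9 members (22.5%) were lower, against 10.1% of named genes, and 0 were higher, against 4.75%. The groups did not overlap for 5 members in the lower direction (12.5%), where the background was 13.3%, and for 2 in the higher direction (5.0%), where it was 4.97%. These shares of members without overlap lie close to the background. No background was matched to the members for signal level, so the shares are a description only. The median over all tested probe sets was -0.049 with the 40th percentile filter and -0.064 with the 60th.

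The difference came mostly from deficient arrays 1 and 2. On both of them 21 members lay below every adequate array (52.5%), against 34.8% of named genes, and 7 lay above every adequate array (17.5%), against 19.7%. Deficient array 3 lay below the adequate arrays for 9 members (22.5%; background 32.1%) and above them for 8 (20.0%; background 23.3%). It lay within their range for 23 (57.5%), where the background was 4717 of 10591 named genes. With deficient array 3 left out, 15 members passed the adjusted threshold in the lower direction (37.5%; background 13.2%) and 1 in the higher direction (2.5%; background 8.83%), by limma with Benjamini-Hochberg adjustment, when 3614 of all tested probe sets (19.4%) passed. Deficient array 3 was the deficient array nearest to the adequate arrays, so leaving it out favours such calls. With any other single array left out, 0 members passed. With deficient array 3 as the only deficient array, assumed to vary like the adequate arrays, 0 members passed and the median difference was -0.03. RNA quality and hybridisation controls moved with arrays 1 and 2, and their part in these differences was not tested. In bulk tissue, fewer cells of a type and less RNA per cell cannot be told apart.

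**Figure D1:**
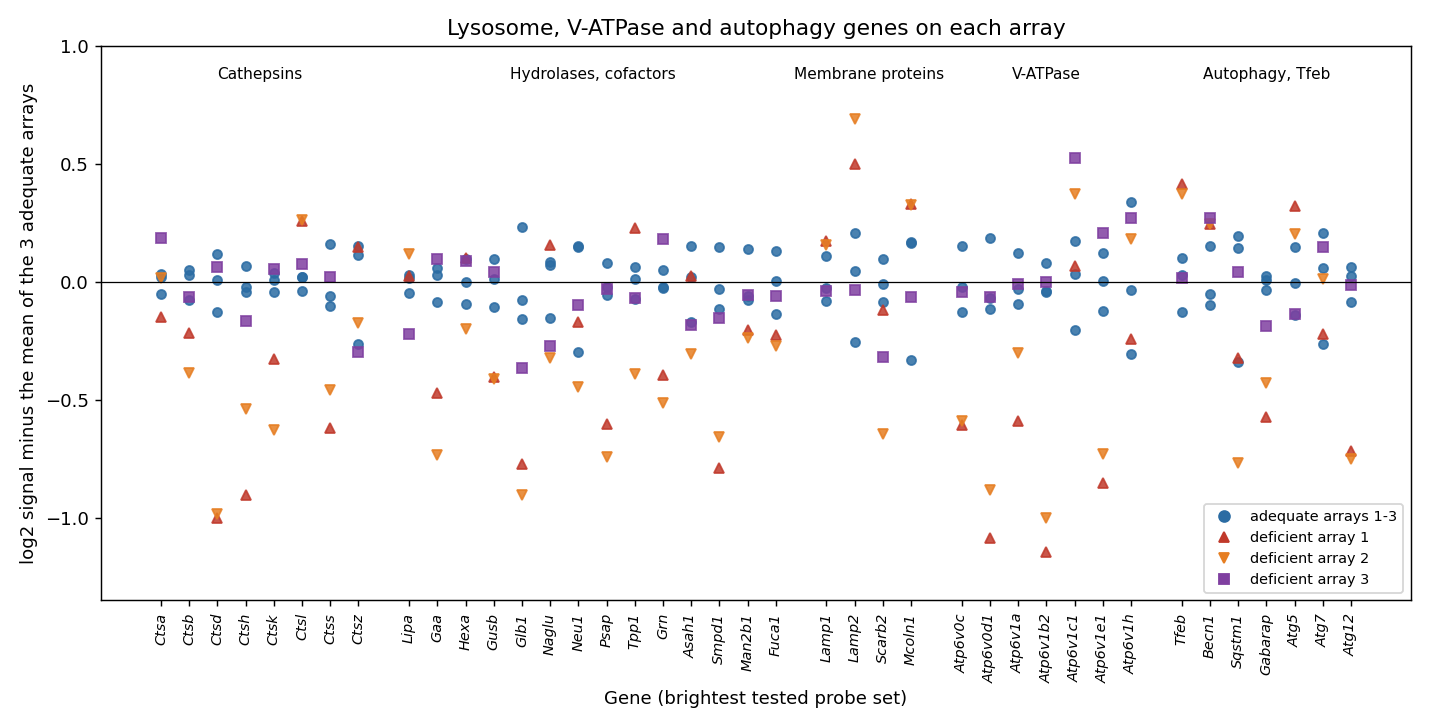
Log2 signal of each of the 40 tested members on each of the 6 arrays, minus the mean of the 3 adequate arrays (blue circles), grouped by sub-block. Deficient arrays 1 and 2 (triangles) lie near -1 for Ctsd, Atp6v0d1 and Atp6v1b2, while deficient array 3 (purple squares) lies near 0 for the same genes.

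Cathepsins, the main lysosomal proteases, had a median log2 difference of -0.26, or -0.14 without deficient array 2, with 6 of 8 lower. Ctsd, the aspartic protease cathepsin D, read 11.00, 11.14 and 11.25 on adequate arrays 1 to 3 and 10.13, 10.15 and 11.19 on deficient arrays 1 to 3. Only deficient arrays 1 and 2 were low, and deficient array 3 lay within the adequate range. Its difference was -0.64 ± 0.26 (SE; unadjusted p 0.033, adjusted p 0.344 by limma), and -0.99 ± 0.13 without deficient array 3 (adjusted p 0.0016). Without deficient array 1 the adjusted p of Ctsd was 0.585, and without deficient array 2 it was 0.784 (limma). Ctsh, an aminopeptidase, read 10.83, 10.81 and 10.92 in the adequate group and 9.95, 10.31 and 10.69 in the deficient group. All 3 deficient arrays were below all adequate arrays, by the least on deficient array 3. The difference was -0.54 ± 0.19, a fold of 0.689 (unadjusted p 0.018, adjusted p 0.344 by limma).

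Ctss, the elastin-degrading and antigen-processing cathepsin S of myeloid cells, read 10.54, 10.28 and 10.32 in the adequate and 9.76, 9.92 and 10.40 in the deficient group. It was low on deficient arrays 1 and 2 and within the adequate range on deficient array 3, and the difference was -0.35 ± 0.19 (SE). Ctsk, the collagen-degrading cathepsin K, read 9.78, 9.70 and 9.75 against 9.41, 9.11 and 9.79, low on deficient arrays 1 and 2 and just above the adequate range on deficient array 3, and its difference was -0.30 ± 0.19. Ctsb, the cysteine protease cathepsin B, read 12.35, 12.25 and 12.38 against 12.11, 11.94 and 12.26. Its groups overlapped through deficient array 3, and the difference was -0.22 ± 0.15. Ctsl, the cysteine protease cathepsin L, went the other way, at 11.99, 12.05 and 12.05 against 12.29, 12.29 and 12.11. Every deficient array was above every adequate array, by less than 0.1 on deficient array 3, with a difference of 0.20 ± 0.14, which did not pass (unadjusted p 0.199, limma). Its other tested probe set gave 0.15 ± 0.17. Ctsa, a carboxypeptidase that also protects beta-galactosidase and neuraminidase, and Ctsz had differences of 0.02 ± 0.15 and -0.11 ± 0.19.

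Most macrophage markers were lower on the same arrays. Of 13 tested markers 11 had a lower deficient mean, and the mean log2 signal over the 13 relative to the adequate group was -0.60, -0.44 and -0.03 on deficient arrays 1 to 3. The adequate arrays themselves spread from -0.10 to 0.07. Their summed linear signal was 16281 to 19563 intensity units on the adequate arrays and 12434 to 17383 on the deficient arrays. The receptor adaptor Tyrobp differed by -1.11 ± 0.39 (SE) and the growth factor receptor Csf1r by -0.20 ± 0.18. Adgre1 and Cd163 went the other way, at 0.18 ± 0.25 and 0.10 ± 0.22. On deficient arrays 1 and 2 Adgre1 read 8.21 and 8.17, just above the adequate range of 7.56 to 8.16. None of the markers passed the adjusted threshold, and Ms4a7 was below the filter. Of 7 fibroblast markers 7 had a higher deficient mean, with averages of 0.87, 0.72 and -0.08 on deficient arrays 1 to 3. Lymphocyte markers, 6 of 6 lower, averaged -0.86, -1.40 and -0.17, where the adequate arrays spread from -0.65 to 0.38. Smooth muscle markers, 5 of 6 higher and 4 higher without overlap (background 4.97%), averaged 0.46, 0.48 and 0.16, against -0.18 to 0.13 on the adequate arrays. Mast cell markers, 5 of 5 lower, averaged -0.40, -0.40 and -0.04, against -0.32 to 0.23. The 4 endothelial markers, 2 lower and 2 higher, averaged -0.14, -0.15 and -0.21, against -0.05 to 0.05. Tie1 differed by -0.74 ± 0.20, Kdr by -0.09 ± 0.15, Tek by 0.0047 ± 0.14 and Pecam1 by 0.16 ± 0.22. Tie1 and the macrophage marker Laptm5 were lower without overlap, where the background was 13.3%. The part of these shifts in the values of the cathepsins and the other members was not tested.

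Glycosidases, lipid hydrolases and their cofactors had a median difference of -0.21, or -0.13 without deficient array 2. All 14 had a lower deficient mean, although the smallest, Hexa, was -0.005, and 12 of 14 were lower after quantile normalization and 13 after median centring. Glb1, the lysosomal beta-galactosidase, had the smallest unadjusted p of all members. It read 10.80, 10.72 and 11.11 on the adequate and 10.10, 9.97 and 10.51 on the deficient arrays. No deficient array reached the adequate range, and deficient array 3 alone was 0.36 below the adequate mean. The difference was -0.68 ± 0.19 (SE), a fold of 0.625 (unadjusted p 0.0042, adjusted p 0.344 by limma). Smpd1, the acid sphingomyelinase, read 10.75, 10.58 and 10.49 against 9.82, 9.95 and 10.45. The groups did not overlap, but deficient array 3 was only just below the lowest adequate array, and the difference was -0.53 ± 0.19 (unadjusted p 0.018, adjusted p 0.344 by limma).

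Psap, the precursor of the saposins that present sphingolipids to their hydrolases, read 12.10, 12.06 and 12.20 in the adequate and 11.52, 11.38 and 12.09 in the deficient group. Deficient arrays 1 and 2 were low and deficient array 3 was within the adequate range. Its difference was -0.46 ± 0.19 (SE; unadjusted p 0.039, limma) and -0.67 ± 0.11 without deficient array 3 (adjusted p 0.0046). Without deficient array 1 the adjusted p of Psap was 0.579, and without deficient array 2 it was 0.784 (limma). Lipa, the acid lipase that frees cholesterol and fatty acids from lipoproteins and lipid droplets, read 9.81, 9.83 and 9.75 against 9.82, 9.91 and 9.57. The first pair of deficient arrays was within or just above the adequate range and deficient array 3 was below it, with a difference of -0.03 ± 0.16, which turned to 0.035 after quantile normalization. The 3 further genes that passed the adjusted threshold without deficient array 3 were the acid glucosidase Gaa, at -0.60 ± 0.16, the beta-glucuronidase Gusb, at -0.41 ± 0.12, and progranulin, Grn, at -0.45 ± 0.11. With all arrays they differed by -0.37 ± 0.22, -0.26 ± 0.17 and -0.24 ± 0.19. Deficient array 3 was above the adequate range for Gaa and Grn and within it for Gusb. Without deficient array 1 the adjusted p of Gaa, Gusb and Grn was 0.645, 0.711 and 0.780 (limma). Without deficient array 2 it was 0.844, 0.826 and 0.908 (limma). These 3 are singled out after their values were seen.

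The remaining hydrolases showed smaller differences, none at an unadjusted p under 0.05. Fuca1, a fucosidase, differed by -0.19 ± 0.15 (SE) and Man2b1, a mannosidase, by -0.17 ± 0.15. For Neu1, the neuraminidase, the difference was -0.24 ± 0.25, and for the ceramidase Asah1 it was -0.16 ± 0.16. Their second tested probe sets gave -0.43 ± 0.28 and -0.42 ± 0.23. Naglu, which degrades heparan sulfate, was at -0.15 ± 0.21, and the peptidase Tpp1 at -0.08 ± 0.19.

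Of the 4 tested lysosomal membrane proteins in the list, 3 were above all adequate arrays on deficient arrays 1 and 2, where most enzymes were lower. Scarb2 was below all adequate arrays on both, so the direction was not shared by the whole sub-block. The mean of the 4 tested genes relative to the adequate mean was 0.22, 0.13 and -0.11 on deficient arrays 1 to 3, and the adequate arrays spread from -0.13 to 0.10. The median difference over the group comparison was 0.15, with 3 of 4 higher, or 2 of 4 after quantile normalization. Leaving out adequate array 1 gave a median of 0.056, leaving out deficient array 1 gave 0.094, and leaving out deficient array 3 gave 0.24. Lamp2, a glycoprotein that lines the lysosome and serves fusion with autophagosomes, read 11.72, 12.18 and 12.02 against 12.47, 12.67 and 11.94. On deficient arrays 1 and 2 it was above all adequate arrays, and on deficient array 3 within their range. The difference was 0.39 ± 0.21 (SE), a fold of 1.31 (unadjusted p 0.098, limma). Its other tested probe set read 11.91, 11.82 and 11.95 against 12.64, 12.60 and 11.86, with a difference of 0.47 ± 0.21 (unadjusted p 0.049, limma). Without deficient array 3 the brighter probe set gave 0.60 ± 0.15 (adjusted p 0.022), and Lamp2 was the only member past the threshold in the higher direction in that fit. Without deficient array 1 the adjusted p of that probe set was 0.630, and without deficient array 2 it was 0.808 (limma).

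Lamp1, the companion glycoprotein whose promoter window holds the 5 E-boxes, read 12.01, 12.15 and 11.96 in the adequate and 12.21, 12.20 and 12.00 in the deficient group. The groups overlapped, and the difference of 0.10 ± 0.15 (SE) turned to -0.019 after quantile normalization. Mcoln1, the calcium channel TRPML1, differed by 0.20 ± 0.21. Scarb2 (LIMP-2), the receptor that carries glucocerebrosidase to the lysosome, read 8.43, 8.25 and 8.32 against 8.21, 7.69 and 8.01. Every deficient array was below every adequate array, although deficient array 1 was only 0.03 below the lowest of them, and the difference was -0.36 ± 0.21 (unadjusted p 0.112, limma). For Cln3, a membrane protein lost in a juvenile neuronal storage disease, all 3 probe sets were below the filter and were not tested. The brightest read 6.95, 6.41 and 6.83 on the adequate and 5.89, 5.63 and 6.52 on the deficient arrays.

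V-ATPase subunits had the lowest sub-block median, -0.41, or -0.26 without deficient array 1, with 5 of 7 lower. The mean of the 7 genes was -0.64, -0.42 and 0.13 on deficient arrays 1 to 3, while the adequate arrays spread from -0.02 to 0.02. Atp6v0d1, the V0 subunit that links the sectors, read 11.65, 11.61 and 11.91 against 10.64, 10.84 and 11.66. Both deficient array 1 and deficient array 2 were far below the adequate arrays and deficient array 3 was among them. The difference was -0.68 ± 0.24 (SE; unadjusted p 0.019, adjusted p 0.344 by limma) and -0.98 ± 0.13 without deficient array 3 (adjusted p 0.0020). Without deficient array 1 the adjusted p of Atp6v0d1 was 0.558, and without deficient array 2 it was 0.784 (limma). Atp6v0c, the proteolipid of the proton-conducting ring, read 12.16, 12.26 and 12.43 against 11.68, 11.70 and 12.24, again low on deficient arrays 1 and 2 only. Its difference was -0.41 ± 0.19 (unadjusted p 0.051, limma).

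In the V1 sector, Atp6v1b2, a subunit of the ATP-hydrolysing hexamer, read 10.64, 10.52 and 10.53 in the adequate and 9.42, 9.56 and 10.56 in the deficient group. Deficient array 3 equalled the adequate mean, and the other deficient arrays were 1.07 below it on average. The difference was -0.71 ± 0.27 (SE; unadjusted p 0.022, adjusted p 0.344 by limma). Its dimmer probe set gave -0.07 ± 0.20, with deficient arrays 1 and 2 within the adequate range, so the low values rest on 1 of its 2 probe sets. Atp6v1e1, in the peripheral stalk, differed by -0.46 ± 0.25, with deficient array 3 above the adequate mean by 0.21. Atp6v1a, the catalytic partner, differed by -0.30 ± 0.18 and by 0.03 ± 0.19 on its other tested probe set. Atp6v1c1, which helps reassemble the sectors, was higher by 0.32 ± 0.18, most on deficient array 3 at 0.52, and the regulatory subunit Atp6v1h differed by 0.07 ± 0.21.

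**Figure D2:**
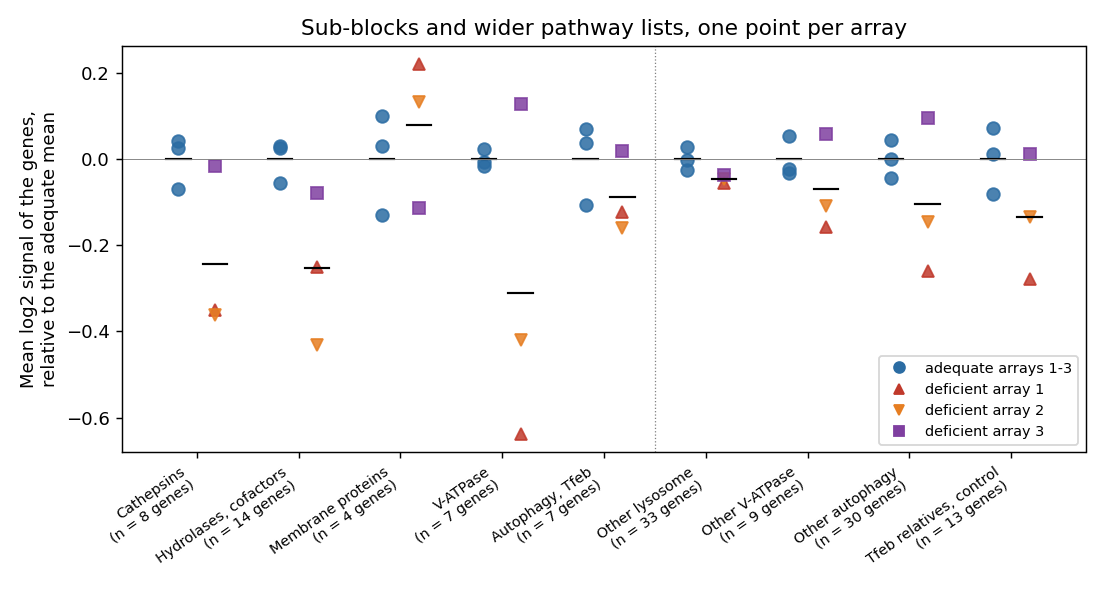
Mean log2 signal per array over the tested genes of each sub-block (left of the dotted line) and of the wider pathway lists (right), relative to the adequate mean. Black bars mark the group means. V-ATPase subunits are lowest on deficient arrays 1 and 2 (-0.64 and -0.42) and at 0.13 on deficient array 3, and membrane proteins are above the adequate mean on deficient arrays 1 and 2.

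Autophagy factors and Tfeb were divided, with 4 of 7 lower and a median of -0.02, or 3 of 7 lower and a median of 0.039 after quantile normalization. With single arrays left out this median ran from -0.15 (without adequate array 1) to 0.057 (without adequate array 3), crossing 0. Gabarap, a ubiquitin-like protein attached to autophagosome membranes, read 12.48, 12.42 and 12.46 against 11.88, 12.02 and 12.26. The adequate arrays lay close together and all 3 deficient arrays were below them. The difference was -0.40 ± 0.16 (SE), a fold of 0.760 (unadjusted p 0.029, adjusted p 0.344 by limma), and -0.42 ± 0.31 on its dimmer probe set. Atg12, part of the conjugate that drives that attachment, read 10.26, 10.37 and 10.41 against 9.63, 9.60 and 10.33. It was low on deficient arrays 1 and 2 only, with a difference of -0.49 ± 0.21 (unadjusted p 0.037, limma). The second of its 3 tested probe sets gave -0.51 ± 0.27 and the dimmest 0.24 ± 0.28.

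Becn1 (Beclin 1), a subunit of the lipid kinase complex that starts the autophagosome, read 10.95, 11.20 and 11.00 in the adequate and 11.29, 11.29 and 11.32 in the deficient group. All 3 deficient arrays were above the adequate arrays and close together, including deficient array 3. The difference was 0.25 ± 0.14 (SE), a fold of 1.19, and did not pass (unadjusted p 0.107, adjusted p 0.405 by limma). Sqstm1 (p62), the receptor that delivers ubiquitinated cargo and is itself degraded, read 11.06, 11.59 and 11.54 against 11.08, 10.63 and 11.44. The groups overlapped, with adequate array 1 as low as deficient array 1, and the difference was -0.35 ± 0.23. Tfeb itself read 8.32, 8.55 and 8.48 against 8.87, 8.83 and 8.47. Deficient arrays 1 and 2 were the highest and deficient array 3 was within the adequate range, with a difference of 0.27 ± 0.19 (unadjusted p 0.193, limma). Atg5, the partner of Atg12, differed by 0.13 ± 0.18, and Atg7, the activating enzyme of the conjugation, by -0.02 ± 0.21, or 0.44 ± 0.26 on its other tested probe set.

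Among members with a promoter window and a tested probe set, the 7 with CACGTG had differences from -0.68 (Glb1) to 0.20 (Mcoln1), 4 lower and 3 higher. The 25 without it had 21 lower and 4 higher. The medians were -0.37 and -0.24. Of the 4 tested genes with TCACGTGA, Ctsd and Atp6v0d1 were lower on deficient arrays 1 and 2, whereas Lamp1 and Mcoln1 were above all adequate arrays on them.

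Of the 11 members with more than 1 tested probe set, 8 had all of them on the same side of 0, and Atg12, Atg7 and Atp6v1a did not.

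**Figure D3:**
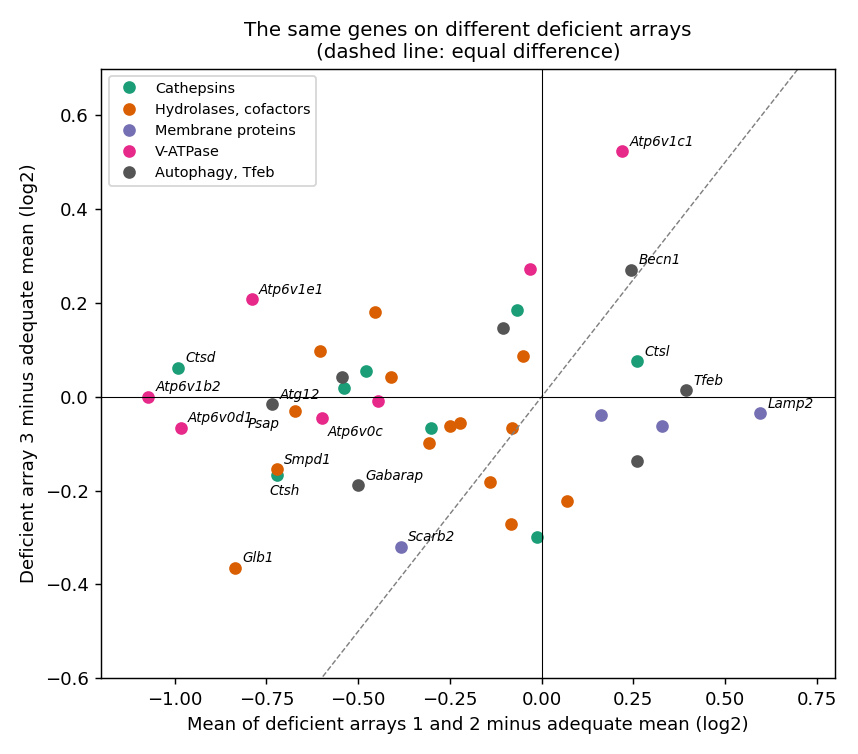
Difference from the adequate mean in log2 signal for each tested member, on deficient arrays 1 and 2 (mean, horizontal axis) and on deficient array 3 (vertical axis). Glb1, Scarb2 and Gabarap are low and Becn1 is high on both axes, whereas Ctsd, Atp6v0d1 and Atp6v1b2 lie near 0 on the vertical axis.

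Other genes of the same systems came from lists chosen by function, likewise with earlier results known. Their median difference and their pooled counts at an unadjusted p were nearer to the background. Over 85 tested genes the median difference was -0.13, with 6 lower (7.06%; background 10.1%) and 4 higher (4.71%; background 4.75%) at an unadjusted p under 0.05. These pooled shares are at or below the background. On deficient arrays 1 and 2 both, 36 of the 85 lay below every adequate array and 18 above, against 34.8% and 19.7% of named genes. Among 30 other autophagy genes 16 lay below and 6 above, where 21 and 7 of the 40 members did. Low values on these 2 arrays were thus not particular to the members. Among 33 other lysosomal genes 1 was lower and 1 higher at that p (3.03% each), and the median was -0.06. Acp2, the lysosomal acid phosphatase, read 9.96, 9.69 and 10.01 against 9.25, 9.21 and 9.53, without overlap, a difference of -0.55 ± 0.17 (SE). Ids, which removes sulfate from heparan and dermatan sulfate, differed by 0.81 ± 0.32 and was high on deficient arrays 1 and 2 only, at 13.50 and 13.65 against 12.14 to 12.64 on the adequate arrays. Npc2, the cholesterol carrier of the lysosome lumen, was at -0.31 ± 0.15 and the thioesterase Ppt2 at -0.51 ± 0.25. Their groups did not overlap, and neither reached an unadjusted p under 0.05.

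Among 9 other pump genes 2 were lower (22.2%) and 1 higher (11.1%) at that p. Atp6v0b, a ring subunit, differed by -0.71 ± 0.24 (SE). Its other tested probe set went the opposite way, at 7.02, 7.11 and 7.19 against 7.63, 7.33 and 7.29 without overlap, a difference of 0.31 ± 0.22. Atp6v0a1, the large V0 subunit, differed by -0.59 ± 0.24. Atp6v1g1, in the peripheral stalk, was higher by 0.54 ± 0.19 without overlap, and Atp6ap1, an accessory protein, differed by -0.21 ± 0.16. Of 30 other autophagy genes 1 was lower (3.33%) and 2 were higher (6.67%) at an unadjusted p under 0.05. Wipi1, a phosphoinositide-binding protein of the forming autophagosome, read 10.70, 11.05 and 10.86 against 11.64, 11.81 and 11.25. Every deficient array was above every adequate array, and the difference was 0.70 ± 0.18 (unadjusted p 0.0032, adjusted p 0.344 by limma), and 0.39 ± 0.21 on its other tested probe set. Atg2b, a lipid transfer protein, read 10.21, 10.32 and 10.13 against 9.30, 9.55 and 9.89, also without overlap, with a difference of -0.64 ± 0.18, whereas its other tested probe set gave -0.04 ± 0.26. Atg14, which directs the Beclin 1 complex to autophagy, was at 0.48 ± 0.20 and the scaffold Rb1cc1 at 0.39 ± 0.18, both higher on all 3 deficient arrays than on any adequate array.

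Among 13 tested relatives and regulators of Tfeb, each by its brightest probe set, the median difference was -0.10. At an unadjusted p under 0.05, 2 were lower (15.4%) and 0 higher. Lamtor5, Lamtor4 and Lamtor2, subunits of the Ragulator scaffold that anchors mTORC1 at the lysosome, differed by -0.51 ± 0.22, -0.54 ± 0.24 and -0.26 ± 0.15 (SE). Lamtor5 and Lamtor4 were low on deficient arrays 1 and 2 only, with deficient array 3 within the adequate range. Lamtor3, the other tested subunit, was at 0.05 ± 0.18. The GTPase Rragc was at -0.41 ± 0.22, and at -0.11 ± 0.20 on its other tested probe set. Fnip1 was at -0.10 ± 0.19 on its brightest probe set. Its other tested probe set was higher by 0.68 ± 0.25 (unadjusted p 0.022, limma), on deficient arrays 1 and 2 only. None of the 85 genes passed the adjusted threshold.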

How the data were processed

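The authors deposited linear intensity signals, 1 per probe set and array. MAS5 and Affymetrix Expression Console are named in the submitters' processing notes, and no version, background setting or detection call is given in the sources used here. Per-array 2% trimmed means of 500 show that the deposited values had been scaled to a common level, which removes differences in total RNA. Signals were log2 transformed without an offset. The 57 control probe sets were left out, and probe sets under the 40th percentile of mean log2 signal were not tested. Symbols came from the platform annotation, 20826 probe sets with 1 symbol, 436 with several and 9780 with none. Of the first kind 20758 matched a GRCr8 gene table by Entrez identifier and 0 symbols changed.

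Titles gave each array's group and number. Deficient minus adequate was fitted over all 18625 tested probe sets with limma 3.58.1 in R 4.3.3 (lmFit and eBayes, trend on), as a two-sided test, and p-values were adjusted by Benjamini-Hochberg with a threshold of 0.05. A gene was represented by its brightest tested probe set. Lists were described by counts and medians, without a set test. Alternatives changed the normalization, filter, offset, variance trend, array weights, probe set rule or the arrays used, or added the array number as a block. Members, lists and alternatives were chosen with earlier results of these data known. Values on every array were given for members without overlap, at an unadjusted p under 0.05, among the 2 of smallest p in a sub-block, or fixed by name (Map1lc3b, with no probe set of its own, has no values), and the 4 genes of smallest p were named in each wider list. With 3 arrays per group, the number of arrays limits the precision. Promoter windows were read from a RefSeq table.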

Additional observations from a re-analysis of the deposited data

How the results depend on the processing

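Of 16 alternatives, the offset of 50, the absence of a filter, the 60th percentile filter, the absence of a variance trend and the replicate number as a block kept the direction and the side of the adjusted threshold of every member they tested. So did leaving out adequate array 1. With the replicate number as a block, 0 members passed the adjusted threshold and 10 in the lower direction had an unadjusted p under 0.05. Deviations of same-numbered arrays from their group means correlated at 0.11, 0.15 and 0.0066, and not every array correlated best with its own number, so the numbers were not taken as a pairing. Without deficient array 3, 3614 probe sets passed, against 0 when any other single array was left out, and 16 members, against 0. Members lower at an unadjusted p under 0.05 numbered 1 to 19 over the arrays left out, with 1 without deficient array 1, 2 without deficient array 2, 3 without adequate array 3, 4 without adequate array 1, 5 without adequate array 2 and 19 without deficient array 3, and 0 to 3 were higher. Over the same fits the median ranged from -0.305 to -0.135 for all members, -0.39 to -0.14 for cathepsins, -0.28 to -0.13 for hydrolases, 0.056 to 0.24 for membrane proteins, -0.60 to -0.26 for pump subunits and -0.15 to 0.057 for autophagy genes, each moving by over 1.5 times for at least 1 array left out. With array weights 3462 probe sets and 14 members passed, with 19 lower and 3 higher members below the unadjusted 0.05. The share of all tested genes at an unadjusted p under 0.05 was not computed for the alternatives. Their counts of members at that p therefore have no background to be read against. The median of the autophagy genes was 0.15 where a gene's tested probe sets were averaged. The cause of these changes was not tested.

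With deficient array 3 alone, 0 lower members and 1 higher member had an unadjusted p under 0.05. The median was then -0.033 over all members, 0.037 for cathepsins, -0.065 for hydrolases, -0.051 for membrane proteins and 0.00025 for pump subunits. The members that changed sign in that fit were Ctsd (0.062), Ctsk (0.054), Ctss (0.019), Gaa (0.097), Hexa (0.087), Gusb (0.042), Grn (0.18), Lamp1 (-0.040), Lamp2 (-0.035), Mcoln1 (-0.062), Atp6v1b2 (0.00025), Atp6v1e1 (0.21), Sqstm1 (0.043), Atg5 (-0.14) and Atg7 (0.15). After quantile normalization Ctsa was -0.0046, Lipa 0.035, Hexa 0.011, Lamp1 -0.019 and Atg7 0.039, and after median centring Hexa was 0.0065. With array weights Ctsa was -0.033, Lipa 0.047 and Atg7 0.015, and with its probe sets averaged Atg7 was 0.21. Leaving out single arrays gave ranges that cross 0 for Ctsa (-0.067 to 0.10), Lipa (-0.099 to 0.070), Hexa (-0.057 to 0.094), Tpp1 (-0.23 to 0.081), Atp6v1h (-0.083 to 0.24) and Atg7 (-0.15 to 0.081). The other 21 members kept their direction under every alternative. Cln3 was below the filter and Neu1 was the tested member nearest to it.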
